A study of Mus musculus with 17 samples.

Results

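The epithelial-to-mesenchymal transition (EMT) genes described here are 7 transcription factors, Snai1, Snai2, Twist1, Twist2, Zeb1, Zeb2 and Prrx1, and 2 mesenchymal marker genes, Cdh2 and Vim. They were chosen by name, with earlier results of these data known, and are 9 of the 28670 genes in the tables. The study sequenced RNA of 17 mouse samples that fall into 7 groups. The WT groups were embryonic stem cells (ESC, 4 samples, passage 10 to 15), iPSC (induced pluripotent stem cells, reprogrammed from fibroblasts; 3 samples) and embryonic fibroblasts (MEF, 2 samples, passage 2, grown in 10% FBS). Partially reprogrammed WT iPSC (piPSC), Nanog-null ESC and clones G2 and G5 of Nanog-null iPSC gave 2 each, all at passage 6. The piPSC samples are 1 clone, B1, so each of these clones stands for itself and not for its kind. Per the labels' protocols, the Nanog-null fibroblasts behind G2 and G5 were sorted by GFP from embryos injected with the Nanog-null ESC, and fibroblasts were reprogrammed with retroviruses for Oct4, Sox2 and Klf4, in some cases also c-Myc. The Nanog-null ESC and the picked iPSC colonies were kept in 2i and LIF on feeder cells, which are commonly fibroblasts. The series calls the samples of a group biological replicates, and no label says whether cultures were separate, so the tests see only sample-to-sample spread, which may be technical. The sample codes form an AC set of 11 libraries, all of strain 129/B6 (v6.5), and a JI set of 6 libraries, all of strain c57/b6. WT ESC 1 and 2 and WT iPSC 1 (passage 6) are AC, WT ESC 3 and 4 and WT iPSC 2 and 3 (passage 10 to 15) are JI, both MEF samples are JI, and all piPSC and Nanog-null samples are AC. Strain and library set cannot be told apart.

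In an EMT, epithelial cells lose their junctions and polarity and take on the shape and matrix of mesenchymal cells. Factors of the SNAIL and ZEB families bind E-box sequences and repress epithelial genes such as Cdh1, which encodes E-cadherin, while TWIST and PRRX1 are factors of the embryonic mesenchyme that can drive the same change. Fibroblasts hold this programme on, and its reversal is known as an early step when fibroblasts are reprogrammed with Oct4, Sox2 and Klf4. The comparisons below ask which of the 9 genes were shut in the partially reprogrammed clone, and how far the Nanog-null lines stood from fibroblasts.

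Levels are FPKM, fragments per kilobase of transcript scaled to library size, so they can be set side by side between genes. Each library held between 7.80 M and 43.5 M assigned fragments. Nanog itself was at 27.2 to 49.5 FPKM in the 6 Nanog-null libraries, at 568 and 574 in AC WT ESC and at 270 to 323 in the JI ESC and iPSC. The labels do not say which part of the gene was deleted, so residual reads do not test the genotype. Of 12 fibroblast markers (collagens, Lox, Thy1 and others), each was measured in MEF, and Pou5f1, a pluripotency factor, was listed at 0 there. In piPSC, Pou5f1 was at 6975 and 7303 FPKM and Nanog at 3.12 and 2.91. Pou5f1 encodes Oct4, which the retroviruses carried, and the part of vector reads in its level was not tested. A change was called where limma, fitted on log2(FPKM + 1) over 15298 genes with a term for the group and a term for the library set, gave an adjusted p under 0.05. All 9 genes entered the test, and each reached 1 FPKM in every MEF and every Nanog-null library.

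The promoter sequences of 6 of the 9 genes were matched by symbol in RefSeq's table for GRCm38.p6. Snai2, Zeb1 and Cdh2 have no sequence shown. The printed ones hold the contrast that follows: the TWIST pair, of which piPSC kept one and shut the other, Prrx1, which was shut, and Snai1, which was not. Each sequence is the 250 bases before the annotated start, 5′ to 3′ on the gene's strand, with the capitals marking the E-box CACCTG or its reverse complement CAGGTG, the SNAIL and ZEB site. The windows are chr2:167537945-167538194 (plus strand) for Snai1, chr12:33957421-33957670 (plus) for Twist1, chr1:91801211-91801460 (plus) for Twist2 and chr1:163313651-163313900 (minus) for Prrx1.
Snai1: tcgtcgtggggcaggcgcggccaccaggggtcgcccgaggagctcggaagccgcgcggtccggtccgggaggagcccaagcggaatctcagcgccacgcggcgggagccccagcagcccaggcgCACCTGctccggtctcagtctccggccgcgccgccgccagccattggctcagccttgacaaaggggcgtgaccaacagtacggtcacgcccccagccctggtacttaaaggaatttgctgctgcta
Twist1: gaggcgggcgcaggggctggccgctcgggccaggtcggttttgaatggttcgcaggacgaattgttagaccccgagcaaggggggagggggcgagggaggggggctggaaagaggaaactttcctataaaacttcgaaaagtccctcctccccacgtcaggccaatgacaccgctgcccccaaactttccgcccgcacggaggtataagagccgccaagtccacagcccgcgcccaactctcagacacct
Twist2: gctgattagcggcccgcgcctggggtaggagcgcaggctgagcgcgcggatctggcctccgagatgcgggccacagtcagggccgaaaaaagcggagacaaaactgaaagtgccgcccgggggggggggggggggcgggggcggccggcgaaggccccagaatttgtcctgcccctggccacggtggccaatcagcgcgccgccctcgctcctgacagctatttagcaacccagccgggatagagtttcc
Prrx1: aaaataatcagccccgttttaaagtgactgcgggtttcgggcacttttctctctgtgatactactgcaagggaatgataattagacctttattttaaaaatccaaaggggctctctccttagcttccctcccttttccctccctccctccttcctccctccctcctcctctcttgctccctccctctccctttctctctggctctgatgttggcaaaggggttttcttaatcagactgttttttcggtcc
The Snai1 window held 1 such E-box, with its first base 126 bases before the start, and the windows of Twist1, Twist2, Zeb2, Prrx1 and Vim held none. Of 4 Zeb2 windows in the table, the one nearest the gene start in the deposited tables was read. Among all 32851 promoter windows of this length, 17.2% held one on either strand. The CpG counts of shut and kept genes overlapped. The Twist2, Zeb2 and Prrx1 windows had 23, 9 and 4, the Snai1, Twist1 and Vim windows had 27, 18 and 8, and the median over all windows was 6.

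MEF held the highest level of every one of the 9 genes, in both libraries against each of the other 15. Against WT ESC all 9 were called higher, where 38.8% of all genes tested were called higher. Their median log2 difference was 3.67, against -0.04 over all genes. Against MEF all 9 were called lower in piPSC, where 37.3% of all genes were, with a median log2 difference of -3.39. Within that common fall the genes split into a group of 4 that was near 0 and a group of 5 that was not. With shut set at under 1 FPKM in both piPSC libraries, Twist2, Zeb2, Prrx1 and Cdh2 were shut, and the same 4 met a threshold of 0.5 or of 2 FPKM. In AC WT ESC 4 genes were also under 1 FPKM in both libraries, but they were Snai2, Twist2, Zeb2 and Cdh2. No member was under 1 FPKM in all JI libraries of ESC or iPSC, or in any Nanog-null group.

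**Figure D1:**
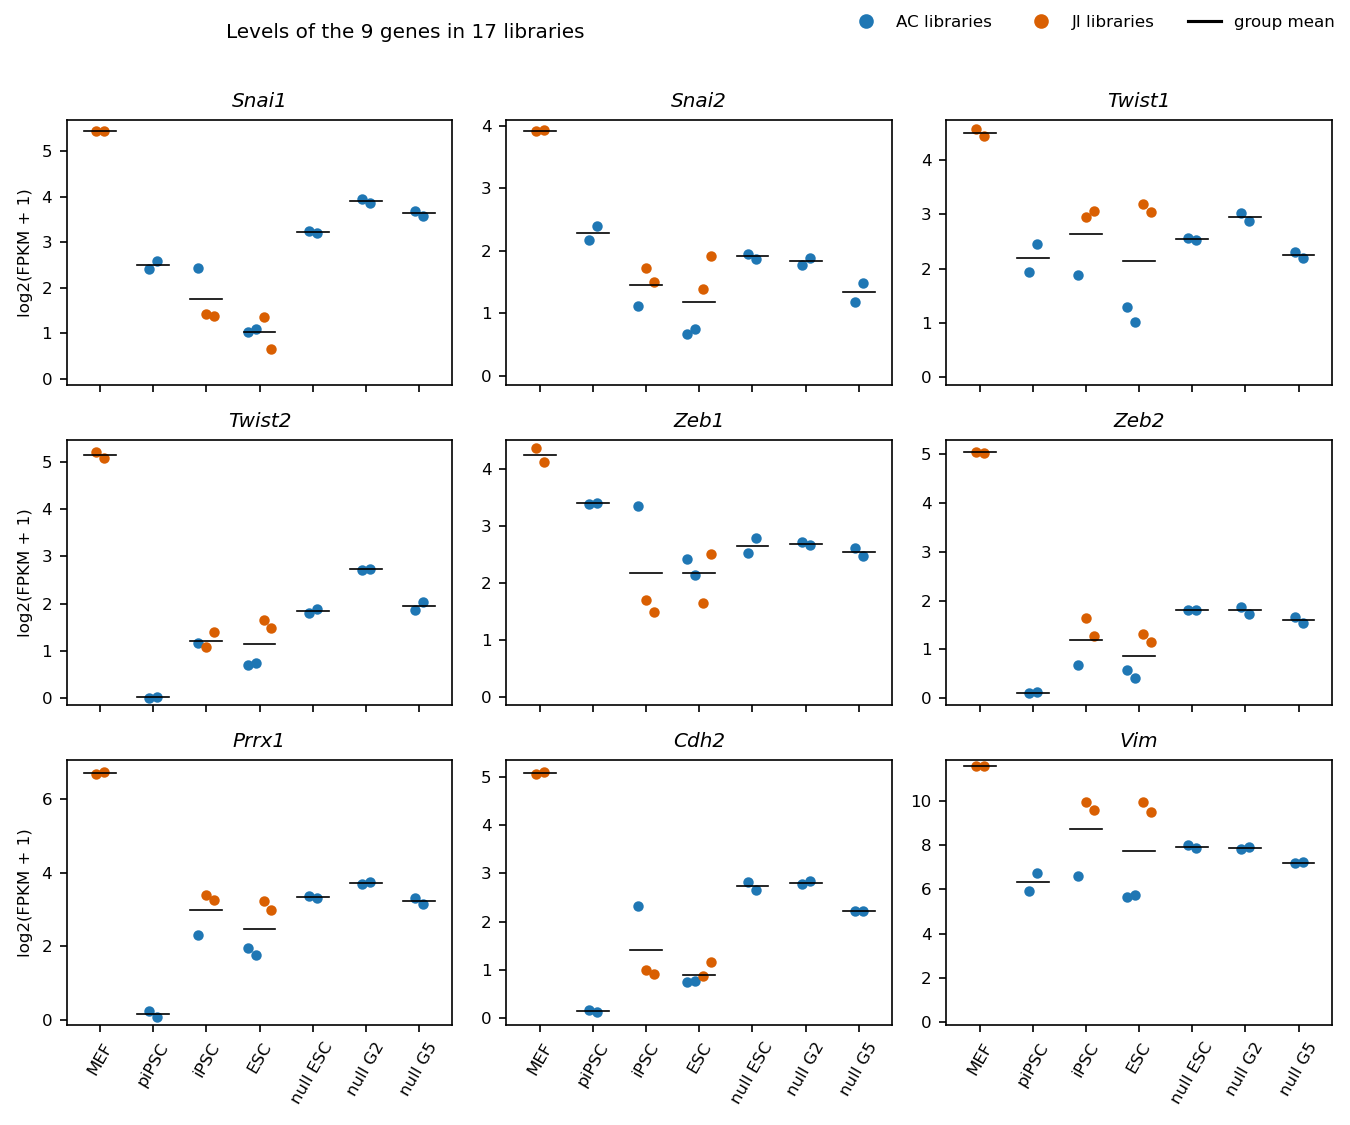
Level of each gene as log2(FPKM + 1) in every library, by group, with AC libraries in blue, JI libraries in orange and the group mean as a line. MEF is highest in all 9 panels, and the piPSC points lie near 0 for Twist2, Zeb2, Prrx1 and Cdh2, while AC and JI libraries of one group stand apart for Vim and Twist1.

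Snai1 encodes SNAIL, a zinc finger repressor of Cdh1 and often the first factor to act in an EMT. It was at 42.2 and 42.7 FPKM in MEF and at 4.27 and 4.99 in piPSC. The piPSC level was thus 10.9% of the MEF level, well above the 4 shut genes and close to WT iPSC 1, at 4.38. The other WT pluripotent libraries were lower, with 1.02 and 1.14 in AC ESC, 1.56 and 0.578 in JI ESC and 1.67 and 1.59 in JI iPSC. WT ESC 4 rests on 6 fragments. Among the Nanog-null lines, ESC had 8.55 and 8.17, G2 had 14.5 and 13.4, and G5 had 11.9 and 11.0, so every one of them lay above every WT pluripotent and piPSC library. The difference from piPSC to WT iPSC was not called (log2 0.46, SE 0.26, adjusted p = 0.138). Leaving out WT iPSC 1 raised it to 1.05 (adjusted p = 0.00260).

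Snai2 encodes SLUG, a second zinc finger repressor of the family, known from neural crest and mesoderm. Its levels were 14.0 and 14.3 FPKM in MEF and 3.49 and 4.25 in piPSC. The piPSC libraries were the highest outside MEF. WT iPSC 1 had 1.17 and the JI iPSC had 2.31 and 1.83, so piPSC lay above all WT iPSC, by 1.34 on the log2 scale (SE 0.19, adjusted p = 4.86e-05). AC ESC were at 0.584 and 0.685 and JI ESC at 1.62 and 2.78. The Nanog-null ESC were at 2.86 and 2.67, G2 at 2.43 and 2.71 and G5 at 1.27 and 1.82, all below piPSC. The difference of Nanog-null iPSC from piPSC was -0.69 (SE 0.16, adjusted p = 0.00173). The fall from MEF to piPSC was -0.88 in the main fit (adjusted p = 0.00407) and -0.64 by edgeR with TMM scaling (adjusted p = 0.0943).

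Twist1 encodes a basic helix-loop-helix factor of head and limb mesenchyme. It was at 22.7 and 20.8 FPKM in MEF, at 2.81 and 4.46 in piPSC and at 2.69 in WT iPSC 1. The JI stem cells held 8.12 and 7.25 in ESC and 6.78 and 7.36 in iPSC, above every AC library but those of G2, which overlapped them. AC ESC held 1.44 and 1.03, so the JI mean was 6.24 times the AC mean in the same cell type. Nanog-null values were 4.91 and 4.75 in ESC, 7.14 and 6.37 in G2 and 3.94 and 3.58 in G5, above both AC ESC libraries and below the MEF. Against WT iPSC the piPSC call (log2 0.64, SE 0.23, adjusted p = 0.0245) depends on the set term. In the AC libraries alone it was 0.31 (adjusted p = 0.202), without piPSC 2 it was 0.38 (adjusted p = 0.216), and with no set term it was -0.45. The call lower than MEF in piPSC (log2 -0.69, adjusted p = 0.0352) was lost by edgeR (adjusted p = 0.137) and when any of WT iPSC 1, 2 or 3, piPSC 1, MEF 1 or MEF 2 was left out (limma, adjusted p = 0.0559 to 0.200).

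Twist2, the paralogue of Twist1 and a regulator of dermal mesenchyme, was nearly undetected in piPSC. MEF had 36.0 and 32.9 FPKM, from 379 and 777 fragments. In piPSC 1 there were 0 fragments, which allows up to 0.0770 FPKM (3 fragments), and in piPSC 2 there was 1. Pooled over both libraries this is 0.0378% of the MEF level, with an exact Poisson 95% interval of 0.000958% to 0.211% that covers counting error only. WT stem cells held some Twist2, with 0.628 and 0.676 in AC ESC, 2.14 and 1.81 in JI ESC and 1.26, 1.13 and 1.63 in WT iPSC 1 to 3. All of these lay above piPSC (log2 -0.85 against WT iPSC, SE 0.19, adjusted p = 0.00189, or 0.0630 without WT iPSC 1). The log2(FPKM + 1) scale understates such a change, and edgeR gave -5.84 for this comparison. Nanog-null ESC held 2.50 and 2.72, G5 2.65 and 3.12, and G2 5.59 and 5.66, the highest outside MEF.

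Zeb1 and Zeb2 encode zinc finger and homeodomain repressors that act on Cdh1 and on epithelial microRNA genes. The 2 genes went separate ways in piPSC. Zeb1 was at 19.6 and 16.3 FPKM in MEF and at 9.48 and 9.56 in piPSC, which is 53.0% of MEF, or 30.2% after division by the AC to JI ratio of the fit. That ratio is of FPKM + 1, not of FPKM. It also rests on unlike gaps, as the JI mean was 0.889 times the AC mean in ESC and 0.221 times in iPSC. WT iPSC 1 matched piPSC at 9.16, whereas the JI iPSC were at 2.26 and 1.80, AC ESC at 4.31 and 3.39 and JI ESC at 2.14 and 4.70. In Nanog-null libraries Zeb1 stayed within 4.57 to 5.91. The deposited counts divide fragments between Zeb1 and a second model that overlaps it, which took 0% to 20.5% of their sum, so its values are uncertain. The call lower in piPSC than in MEF (log2 -1.66, SE 0.45, adjusted p = 0.00455) was not made without the set term (-0.84, adjusted p = 0.188).

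Zeb2 had 32.2 and 31.8 FPKM in MEF and 0.0693 and 0.0880 in piPSC, from 15 and 11 fragments. This is 0.229% of MEF from the pooled fragments (exact Poisson 95% interval 0.149% to 0.335%). AC ESC were at 0.484 and 0.334 and WT iPSC 1 at 0.596, several times the piPSC level, and the JI libraries were higher still, at 1.50 and 1.22 in ESC and 2.13 and 1.43 in iPSC. Against WT iPSC the piPSC difference was -0.58 (SE 0.13, adjusted p = 0.00193), and quantile normalization left it uncalled (-0.30, adjusted p = 0.0976). Nanog-null ESC held 2.51 and 2.49, G2 2.66 and 2.31 and G5 2.17 and 1.92, all above the AC WT libraries.

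Prrx1 encodes a paired-related homeodomain factor of limb and craniofacial mesenchyme. Its level was 103 and 107 FPKM in MEF, the highest of the 7 transcription factors, and 0.173 and 0.0595 in piPSC, from 24 and 8 fragments. The pooled share was 0.124% of MEF (exact Poisson 95% interval 0.0845% to 0.174%). All WT stem cells held more, with 2.89 and 2.37 in AC ESC, 4.00 in WT iPSC 1, 8.32 and 6.96 in JI ESC and 9.46 and 8.53 in JI iPSC. The difference of piPSC from WT iPSC, -2.06 (SE 0.13, adjusted p = 2.02e-08), was larger than for the other genes on the log2(FPKM + 1) scale, whereas edgeR gave -4.97 for Prrx1 and -5.84 for Twist2. Nanog-null levels were 9.27 and 8.92 in ESC, 11.9 and 12.4 in G2 and 8.92 and 7.89 in G5.

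Cdh2 encodes N-cadherin, the adhesion molecule that mesenchymal cells hold in place of E-cadherin. It was at 32.1 and 33.5 FPKM in MEF and at 0.131 and 0.0919 in piPSC, from 17 and 14 fragments, a pooled share of 0.347% (exact Poisson 95% interval 0.236% to 0.492%). WT iPSC 1, at 3.98, stood apart from the 6 other WT ESC and iPSC libraries, which ran from 0.681 to 1.24. Cdh2 fell in piPSC against WT iPSC by 1.52 on the log2 scale (SE 0.33, adjusted p = 0.00124). Nanog-null ESC held 6.04 and 5.34, G2 5.85 and 6.15 and G5 3.64 and 3.67. The G5 libraries thus lay below WT iPSC 1 and above the other WT stem cells.

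Vim encodes vimentin, the intermediate filament of mesenchymal cells, and was the most abundant of the 9 genes in every library. MEF had 3046 and 3043 FPKM and piPSC 59.5 and 106, which is 2.72% of MEF as deposited and 34.7% after division by the AC to JI ratio of the fit. AC ESC were at 49.9 and 53.0 and WT iPSC 1 at 96.4, so piPSC overlapped the AC WT stem cells. JI ESC were at 981 and 728 and JI iPSC at 1001 and 761, that is 16.6 times the AC mean in ESC and 9.14 times in iPSC. This gap between sets was larger than any between AC groups: Nanog-null ESC had 254 and 235, G2 227 and 240, and G5 144 and 148. The difference of piPSC from WT iPSC was not called (log2 0.06, SE 0.28, adjusted p = 0.852).

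Across the 9 genes, piPSC against WT iPSC gave 2 called higher (Snai2 and Twist1) and 4 called lower (Twist2, Zeb2, Prrx1 and Cdh2), where 30.5% of all genes were called higher and 34.2% lower. These counts are near the shares of all genes and cannot be read as particular to the 9. The 4 called lower are the 4 shut genes, which were defined by their level in the same piPSC libraries. Markers of fibroblasts moved with these 4. Of 12 fibroblast markers 10 were called lower than in WT iPSC and 1 higher (median log2 -3.09, all genes -0.06), with collagen Col1a1 at 0.364 and 0.319 FPKM in piPSC against 63.0 in WT iPSC 1. The median marker was at 0.0788% and 0.105% of MEF in the piPSC libraries, 8 of the 12 were under 1 FPKM in both, and none was at 0 in both. Dcn, a matrix proteoglycan gene, was highest of the 12, at 18.4 and 66.6 FPKM against a mean of 90.1 in MEF. In the other AC WT libraries the median marker was at 4.66% to 8.09% of MEF, and in the JI stem cells at 1.57% to 1.93%. The part of feeder or other fibroblast RNA in the levels of the 9 genes was not tested, and in bulk samples fewer cells of a type and less RNA per cell cannot be told apart. Beside that low median marker, the 4 shut genes in piPSC were at 0.0380% (Twist2) to 0.339% (Cdh2) of MEF. By group mean only Twist2 lay below the marker median of 0.0921%. Snai1, Snai2, Twist1, Zeb1 and Vim in piPSC were at 2.72% (Vim) to 53.0% (Zeb1) of MEF. Divided by the AC to JI ratio of the fit, their shares were 8.02% for Snai1, 46.5% for Snai2, 51.8% for Twist1, 30.2% for Zeb1 and 34.7% for Vim, and those of the 4 shut genes were 0.0551% to 0.416%. As a ratio of FPKM + 1, it can fall short of the gap in FPKM for genes at low levels. For Snai1, Zeb1 and Cdh2 the ESC and iPSC behind it gave unlike gaps. The JI mean in FPKM was 0.989, 0.889 and 1.50 times the AC mean in ESC. In iPSC it was 0.372, 0.221 and 0.236 times, with WT iPSC 1 as the only AC library.

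Genes around the programme were mixed in piPSC. Of 21 tested genes among 22 epithelial targets of these repressors, 13 were called lower and 5 higher than in WT iPSC (median log2 -0.93). Cdh1, at 8.83 and 10.5 FPKM, was below WT iPSC 1 at 71.6 and the JI iPSC at 33.3 and 35.4, and far above MEF at 0.291 and 0.392. Of 18 genes of mesenchymal adhesion, matrix and cytoskeleton, 11 were called lower and 6 higher. The hyaluronan receptor gene Cd44 was at 108 FPKM on average against 10.9 in WT iPSC. Fn1, the matrix protein fibronectin, was at 393 and 542 FPKM in piPSC, above 208 in WT iPSC 1. TGF-beta signals can induce SNAIL and ZEB factors. Of 20 genes of the TGF-beta and BMP pathway, 10 were called higher and 5 lower (median log2 0.67). The list mixes both branches and includes inhibitors such as Smad6, Smad7 and Skil, so its count does not measure signalling. The ligand Tgfb2 was at 38.6 FPKM on average against 0.927 in WT iPSC, and the receptor Tgfbr2 at 6.14 against 0.985. The ligand Tgfb1 was lower, at 0.484 against 1.52 (log2 -0.57, adjusted p = 0.0371).

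**Figure D2:**
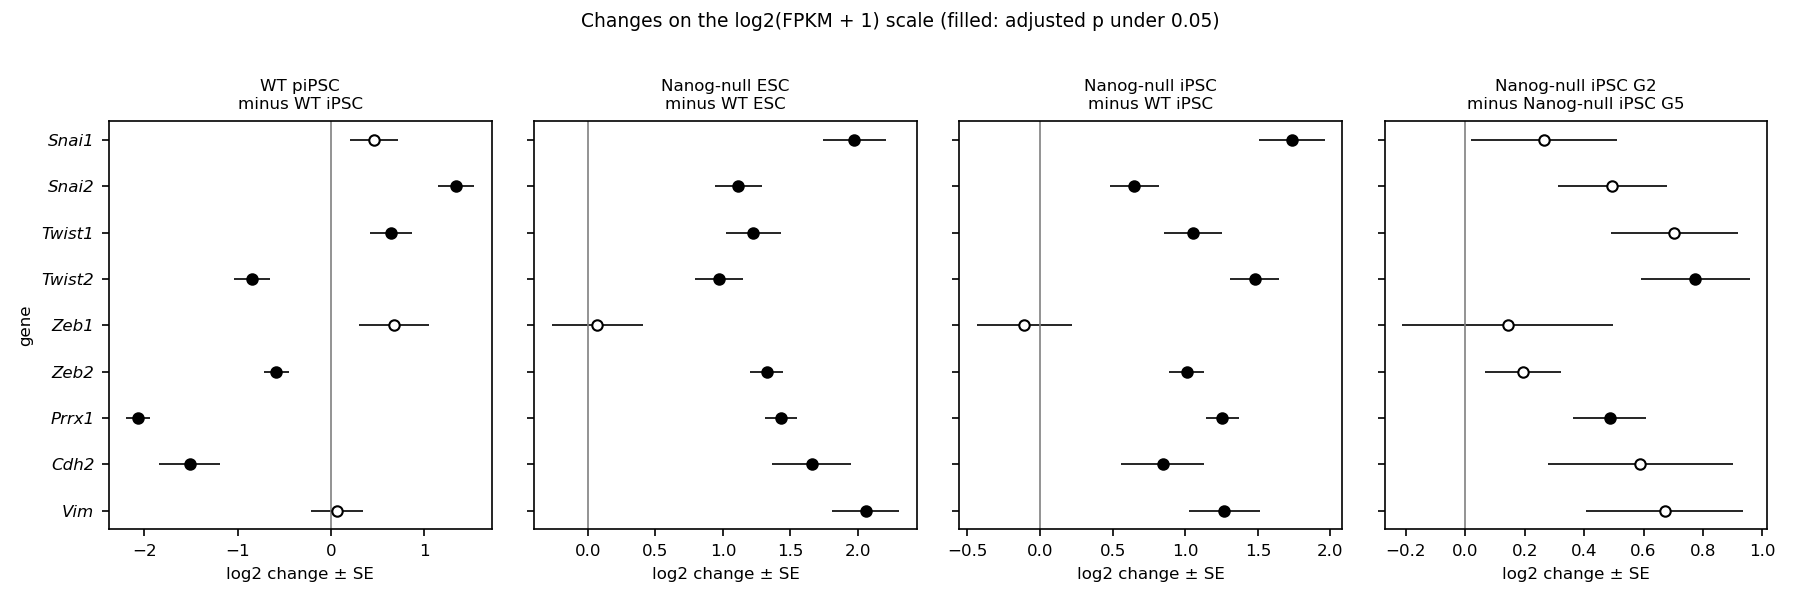
Log2 change with its standard error for each gene in 4 comparisons on the log2(FPKM + 1) scale, filled where the adjusted p was under 0.05. Twist2, Zeb2, Prrx1 and Cdh2 lie left of 0 in piPSC, and 8 of 9 genes lie right of 0 and are filled in both comparisons of Nanog-null with WT cells.

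In Nanog-null ESC 8 of the 9 genes were called higher than in WT ESC, where 27.4% of all genes were called higher and 26.4% lower. The 8 were all but Zeb1, and their log2 changes ran from 0.97 for Twist2 to 2.06 for Vim. In FPKM, the Nanog-null ESC mean was 8.22 times the AC WT ESC mean for Cdh2, 7.74 times for Snai1 and 6.12 times for Zeb2. It was 4.75 times for Vim, 4.36 for Snai2, 4.00 for Twist2, 3.92 for Twist1 and 3.46 for Prrx1. Zeb1 was at 1.38 times, a difference called in the AC libraries alone (log2 0.38, adjusted p = 0.0202) and not in the fit of all libraries (0.07, adjusted p = 0.884). For all 9 genes each of the 6 Nanog-null libraries lay above both AC WT ESC libraries. How large a share of all genes did so was not counted. With the JI libraries included, WT and Nanog-null ESC overlapped for Snai2, Twist1 and Vim, and without the set term the call was lost for these 3 genes and for Prrx1.

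In Nanog-null iPSC, taken as the mean of G2 and G5, 8 of the 9 genes were called higher than in WT iPSC, where 28.7% of all genes were called higher and 28.7% lower. With the JI libraries included, the groups overlapped for 7 of the 9, all but Snai1 and Twist2, and the mean FPKM was lower in Nanog-null iPSC for Vim (190 against 619) and Twist1 (5.26 against 5.61). Without the set term 3 genes were called, Snai1, Twist2 and Cdh2, where 47.43% of all genes were called in either direction. Vim (-1.18) and Twist1 (-0.034) then changed sign. Zeb1 was again not called (log2 -0.11, adjusted p = 0.800), but it depends on the WT library: the change was 0.83 (adjusted p = 0.0322) without WT iPSC 1 and -0.73 in the AC libraries, where that library is the whole WT group. The adjusted p of the latter (0.00134), like every AC-alone test against WT iPSC, assumes that a lone sample varies like the other groups. Changes of the 8 ran from 0.65 for Snai2 to 1.73 for Snai1. All 6 Nanog-null libraries lay above WT iPSC 1, the only AC sample of its group, for 7 genes. The exceptions were Zeb1, with 0 of 6, and Cdh2, with 4 of 6. This order rests on 1 WT library, and the share of all genes with it was not counted. The Cdh2 call (log2 0.84, adjusted p = 0.0232) was not made in the AC libraries alone (0.20, adjusted p = 0.0807). Whether the difference of Nanog-null from WT cells was unlike in iPSC and ESC was tested as an interaction. It was called for 0 of the 9 genes, against 11% of all genes. Nanog-null ESC were at passage 6 and WT ESC at passage 10 to 15, so genotype and passage cannot be told apart in ESC.

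As a share of the MEF level the Nanog-null lines lay between 4.80% and 32.8% for every gene. Snai1 reached 19.7% ± 0.62 (SD, n = 2) of MEF in Nanog-null ESC, 32.8% ± 1.68 (SD, n = 2) in G2 and 26.9% ± 1.58 (SD, n = 2) in G5. Zeb1 was at 26.9% to 30.3%, Twist1 at 17.3% to 31.1%, Snai2 at 10.9% to 19.6% and Cdh2 at 11.1% to 18.3% over the 3 lines. Lower shares were held by Twist2, at 7.58% to 16.3%, Prrx1, at 8.03% to 11.6%, Zeb2, at 6.38% to 7.82%, and Vim, at 4.80% to 8.03%. These shares set AC libraries beside JI fibroblasts with no adjustment. Divided by the AC to JI ratio that the fit estimates from WT ESC and iPSC, Vim came to 61.2% to 102% and Twist1 to 53.5% to 96.2%, while Snai1 came to 14.5% to 24.2% and Zeb2 to 10.8% to 13.2%. The ratio was 0.0784 for Vim, 0.323 for Twist1 and 0.591 for Zeb2, and which of the shares is nearer to the cells' own was not tested. The ratio is of FPKM + 1 but was applied to FPKM, so at low levels it understates the gap between sets. For Zeb2 the JI mean in FPKM was 3.31 times the AC mean in ESC and 2.98 times in iPSC. For Snai1 it was 0.989 times in ESC and 0.372 times in iPSC, where AC is WT iPSC 1 alone, so its ratio rests on unlike gaps. Against MEF 7 of the 9 genes were called lower in Nanog-null ESC (35.4% of all genes were), and 7 in Nanog-null iPSC (35.7% of all genes were). Those not called were Twist1 and Vim in both, although all Nanog-null libraries lay below both MEF libraries.

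**Figure D3:**
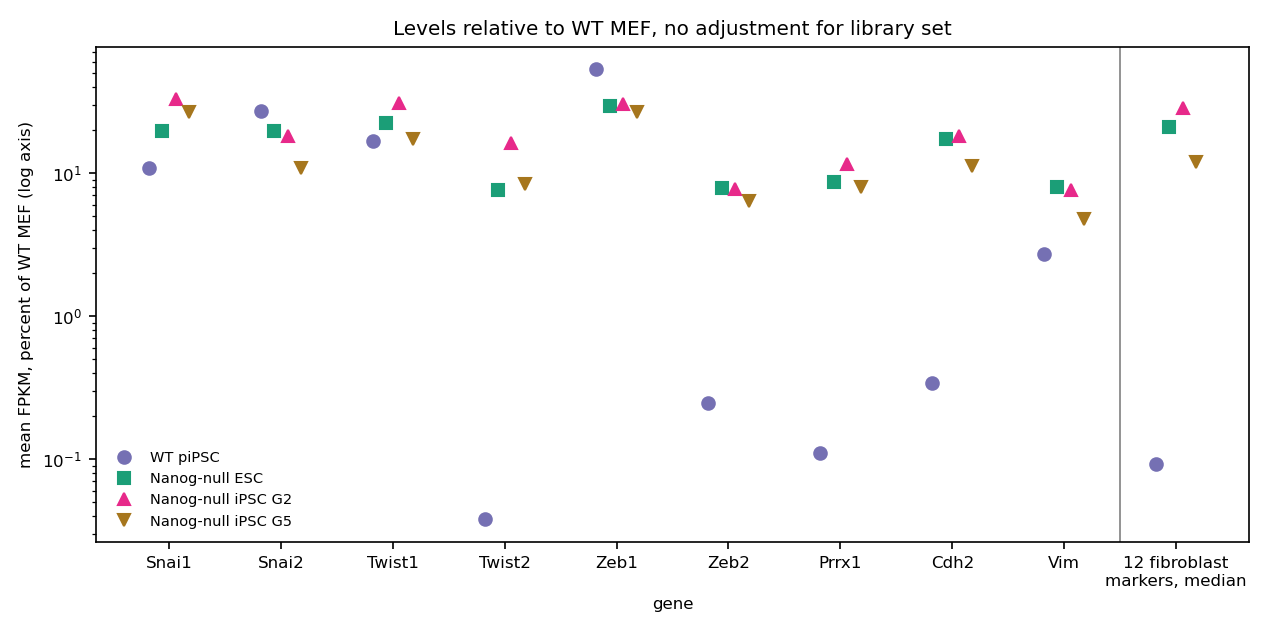
Mean FPKM of each gene as a percent of the WT MEF mean on a log axis, in piPSC and in the 3 Nanog-null lines, with the median of 12 fibroblast markers at the right. The Nanog-null points lie between 4.80% and 32.8% for all 9 genes, and 4 of the piPSC points lie under 1%.

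Fibroblast markers moved with this rise too. All 12 were called higher in Nanog-null ESC than in WT ESC (median log2 2.08, all genes -0.01), and 11 of 12 in Nanog-null iPSC than in WT iPSC (median 1.63). The median marker stood at 20.8% and 21.0% of MEF in Nanog-null ESC, at 28.3% and 28.4% in G2 and at 11.8% and 12.2% in G5, against 4.66% and 5.38% in AC WT ESC. The summed level of the 12 was 943 to 967 FPKM in Nanog-null ESC, 1395 to 1480 in G2 and 585 to 588 in G5, against 207 to 220 in AC WT ESC and 4389 to 4442 in MEF. Set against the median marker, with no adjustment for the set, 7 of the 9 genes held a smaller share of MEF in Nanog-null ESC, and 6 of 9 did in G2 and in G5. Snai1 and Zeb1 were above it in G2 and G5, as was Twist1. Primitive endoderm markers, which name an extraembryonic lineage that also lays down matrix, were all 10 called higher in both Nanog-null comparisons. Of these, Sparc, Col4a1, Dab2 and Pdgfra were higher still in MEF, at means of 1570, 245, 59.5 and 25.5 FPKM. Gata6, Gata4, Sox17, Sox7, Foxa2 and Lama1 were lower in MEF than in every Nanog-null group. Gata6 was at 14.8 to 20.6 FPKM in the 6 Nanog-null libraries against 0.258 to 0.693 in WT ESC. The parts of fibroblast and of endoderm RNA in the levels of the 9 genes were not tested.

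**Figure D4:**
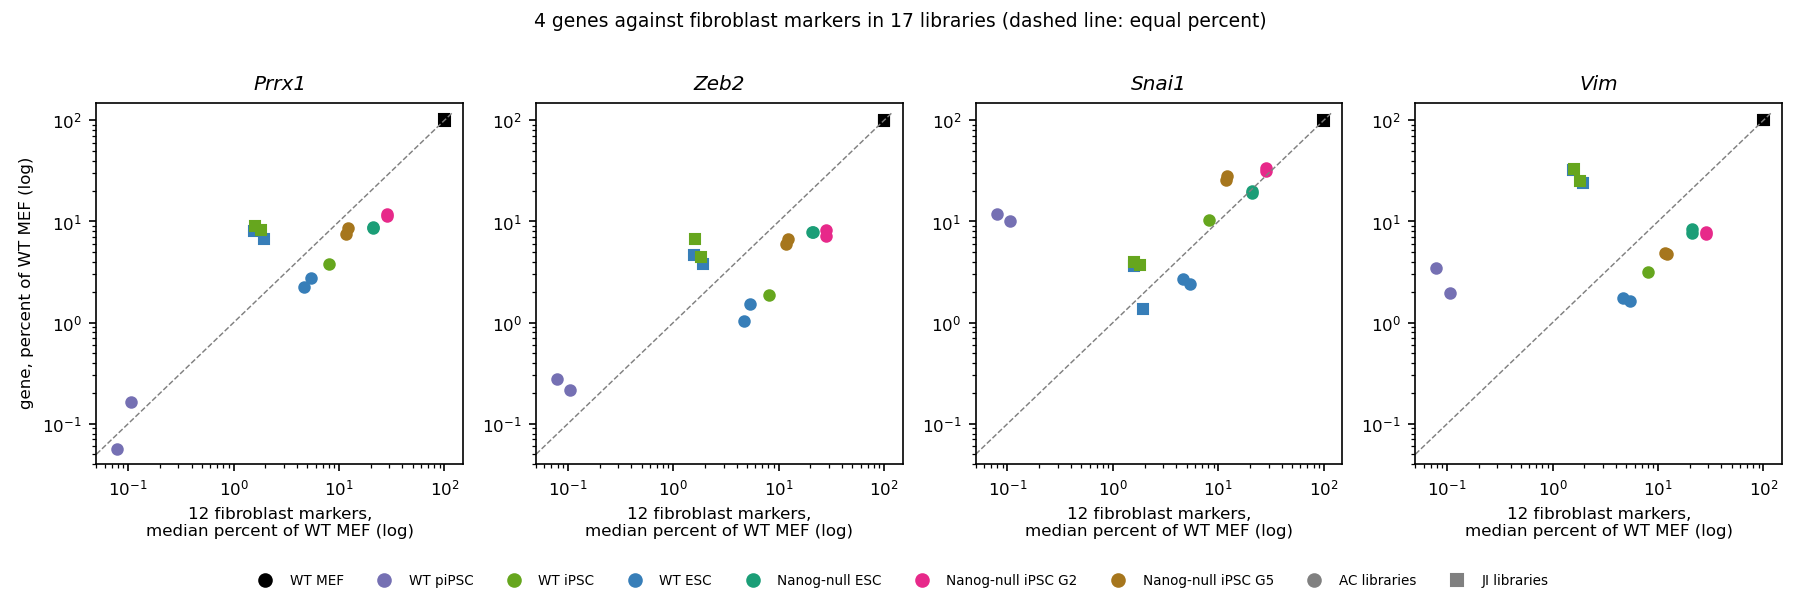
Level of Prrx1, Zeb2, Snai1 and Vim as a percent of MEF against the median percent of 12 fibroblast markers in each library, both on log axes, with circles for AC, squares for JI and a dashed line where the percents are equal. Snai1 lies above the line in piPSC, G2, G5, WT iPSC 1 and the JI stem cells except WT ESC 4. JI stem cells lie above it for Prrx1, Zeb2 and Vim.

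Epithelial genes were mixed in Nanog-null ESC and mostly higher in Nanog-null iPSC. Of 21 epithelial targets tested, 8 were called higher and 4 lower in Nanog-null ESC (median log2 0.22), and 15 higher and 1 lower in Nanog-null iPSC (median 1.26). The keratin Krt8, an intermediate filament of simple epithelia, was at 214 to 229 FPKM in Nanog-null ESC, 348 to 378 in G2 and 711 to 813 in G5. WT levels depended on the set, at 6.46 to 6.59 in AC ESC and 2.30 in WT iPSC 1 against 153 to 200 in JI ESC and 98.4 to 106 in JI iPSC. Cdh1 was at 67.7 to 86.3 FPKM in the 6 Nanog-null libraries. This lies below AC WT ESC, at 163 and 159, and around WT iPSC 1, at 71.6. It lies above the JI ESC, at 28.6 and 36.3, and the JI iPSC, at 33.3 and 35.4, so the direction depends on the set. Of 18 mesenchymal adhesion, matrix and cytoskeleton genes, 14 were called higher and 2 lower in Nanog-null ESC, and 14 higher and 0 lower in Nanog-null iPSC. Cdh11, the cadherin of loose mesenchyme, was at 16.4 to 36.5 FPKM in Nanog-null libraries against 5.18 to 6.64 in AC WT ESC and iPSC and 2.00 and 2.08 in piPSC. In the TGF-beta and BMP list of 20, 10 were called higher and 4 lower in Nanog-null ESC (median log2 0.44), and 10 higher and 3 lower in Nanog-null iPSC (median 0.35). Tgfbr2 was at 5.41 to 10.9 FPKM in the Nanog-null libraries, against 0.705 to 1.88 in AC WT ESC and iPSC, 6.09 and 6.19 in piPSC, and 21.3 and 22.5 in MEF.

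Other EMT-linked transcription factors, 16 outside the 9 genes, were mixed. In Nanog-null ESC 8 were called higher and 4 lower, in Nanog-null iPSC 7 and 4, with medians of 0.26 and 0.14 on the log2 scale. Hmga2, a chromatin protein that can induce Snai1 and Twist1, was at 72.1 FPKM on average in Nanog-null ESC and 71.3 in Nanog-null iPSC, against 4.43 in WT ESC and 6.12 in WT iPSC. MEF held 400 FPKM of it, so like the fibroblast markers it was higher still in MEF. The Nanog-null lines were at 17.1% to 18.6% of that level. Of 12 tested cofactors of SNAIL and ZEB, 1 was called higher and 6 lower in Nanog-null ESC, and 2 higher and 9 lower in Nanog-null iPSC. The deacetylase gene Hdac1 was at 80.3 and 67.2 FPKM on average in these groups, against 204 and 208 in WT.

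Nanog-null iPSC differed from piPSC in 8 of the 9 genes. Snai1, Twist2, Zeb2, Prrx1, Cdh2 and Vim were called higher (36.5% of all genes were) and Snai2 and Zeb1 lower (34.0% of all genes were). On the log2(FPKM + 1) scale the differences were 3.32 for Prrx1 (SE 0.11, adjusted p = 2.18e-11), 2.36 for Cdh2 and 2.32 for Twist2. By edgeR, which adds no such constant to FPKM, they were 6.51, 5.43 and 7.95, so the order depends on the scale. The Zeb1 call (log2 -0.78, adjusted p = 0.0368) was lost when any 1 of the piPSC or Nanog-null iPSC libraries was left out (adjusted p = 0.0558 to 0.131).

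Between the Nanog-null clones, both G2 libraries lay above both G5 libraries for all 9 genes. The share of all genes with this order was not counted, so it cannot be read as particular to the 9. Twist2 (log2 0.77, SE 0.18, adjusted p = 0.0285) and Prrx1 (0.49, SE 0.12, adjusted p = 0.0388) were called higher in G2, where 3.14% of all genes were called higher and 2.22% lower. The G2 mean was 1.95 times the G5 mean for Twist2, 1.80 for Twist1, 1.66 for Snai2, 1.64 for Cdh2, 1.60 for Vim and 1.45 for Prrx1, and 1.12 to 1.22 times for Zeb1, Zeb2 and Snai1. Of the 12 fibroblast markers 9 were called higher in G2 and 0 lower (median log2 1.12), and the part of these cells in the difference was not tested. Leaving out any library of G2 or G5 left neither gene called. The Prrx1 call was also lost without Nanog-null ESC 1 or 2, MEF 1 or 2, WT ESC 1 or WT iPSC 2 (adjusted p = 0.0520 to 0.0651). In the AC libraries alone 5 genes were called, where 18.15% of all genes were. Nanog-null iPSC and Nanog-null ESC did not differ by limma's call in any of the 9 genes, where 6.19% of all genes were called higher and 4.62% lower. By unadjusted p under 0.05 there were 2, Snai1 and Twist2, and edgeR with TMM called 0. In the AC libraries alone 4 were called, where 29.71% of all genes were, with Snai1 and Twist2 higher and Snai2 and Cdh2 lower in the iPSC. Leaving out WT iPSC 1 or WT ESC 3 gave 2, where 18.11% and 14.4% of all genes were called.

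WT iPSC and WT ESC likewise gave 0 called genes of the 9 by limma, where 0.641% of all genes were called higher and 0.379% lower. By unadjusted p under 0.05 there were 3, Snai1, Prrx1 and Cdh2, and edgeR with TMM called 2, Snai1 (log2 1.51, adjusted p = 0.00305) and Cdh2 (1.43, adjusted p = 0.0253). Of all genes, edgeR with TMM called 8.60% here. The sets did not behave alike. In AC, WT iPSC 1 held 5.75 times the ESC mean of Cdh2, 4.06 times that of Snai1 and 2.38 times that of Zeb1, whereas in JI the ratios were 0.907, 1.53 and 0.593. AC has 1 iPSC library, so its ratios have no spread of their own. Leaving out WT ESC 3 or WT ESC 4, both JI, raised the count of called genes to 2 and 1, where 17.49% and 11.83% of all genes were called.

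The genes whose log2(FPKM + 1) followed each member most closely over the 17 libraries, by Pearson's r as a description, were as follows. Twist2 went with the transcription factor gene Ets1 (r = 0.993), Zeb2 with Fam149a (0.995), Prrx1 with the actin-binding protein gene Dbn1 (0.992) and Cdh2 with Endod1 (0.988). The best matches of Snai1, Snai2, Twist1, Zeb1 and Vim were Cobll1 (0.976), Serinc1 (0.972), Fam176b (0.976), Cep170 (0.960) and Gm2115 (0.972). Among the members the closest pairs were Twist2 with Zeb2 (0.968), Twist2 with Prrx1 (0.957) and Zeb2 with Prrx1 (0.954), while Zeb1 and Vim had 0.154. All these values share the libraries, and with them the MEF, which hold the highest level of every member.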

How the data were processed

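RNA-seq was done on 17 samples in 7 groups. The authors deposited per-sample gene tables with FPKM, estimated counts of fragments, and a scaled fragment signal (not used here). Tools listed in the submitters' processing notes are Cuffdiff 2.1.1, Bowtie2 2.0.5, TopHat2 2.0.7 and CASAVA, and the builds listed are mm10 and NCBIM37, with no roles given. The main test was limma 3.58.1 (R 4.3.3) on log2(FPKM + 1) over all 17 samples, with terms for group and library set (AC or JI, the prefix of the sample codes). A gene was tested if 2 or more samples reached 1 FPKM and its status was OK in all, which left 15298 of 28670 genes (19 were left out for status). The residual degrees of freedom were 9. P-values were Benjamini-Hochberg adjusted over all genes tested, with a threshold of 0.05. The interaction test of Nanog-null cells was a contrast of groups in the same fit. The interaction test of AC against JI used another limma fit, with a separate term for each group in each library set. Nanog-null iPSC is the mean of the G2 and G5 effects. Where genes are said not to overlap between groups of libraries, the share of all genes that did the same was not counted.

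Alternatives were edgeR 4.0.16 (quasi-likelihood, TMM or RLE scaling) on the estimated counts rounded to whole numbers, quantile normalization, 0.1 as the pseudocount, no low-value filter or one at a mean of 5 FPKM, dropping the set term, each set by itself, only the groups compared, a replicate block, requiring a 2-fold change, and omitting each sample in turn. Limits at low counts are exact Poisson 95% intervals, or 3 fragments where none was seen, and cover counting error only. The fit was also run on simulated data with known changes in piPSC, for piPSC against MEF only. The simulated data held no difference between the AC and JI sets, so they do not test the set term.

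The members and gene lists were chosen with earlier results of these data known. Named genes are the 9 members, at most 3 called genes per list and comparison with the largest change, no overlap between groups and a mean of at least 5 FPKM in one group, a few fixed genes (Cdh1, Epcam, Fn1, Cdh11, Tgfb1, Tgfbr2 and Nanog), and the 3 genes most correlated with each member. Pou5f1, Col1a1, Dcn and the per-library values of Krt8 were added after their values were seen. Ajuba, Sox1 and Adgre1 of the lists were not matched, and of the 2 rows each for Sox4, Runx2 and Dab2 the first was used. Further lists (neural, streak and mesoderm, macrophage, endothelial, pluripotent) were marker checks: in Nanog-null ESC against WT ESC, neural genes had 0 called higher and 3 lower of 4 tested, streak and mesoderm 1 and 1 of 3, macrophage 1 and 0 of 5, endothelial 1 and 2 of 5, and pluripotent 0 and 5 of 7.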

Additional observations from a re-analysis of the deposited data

Results flagged for a closer look

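For 5 of the 9 genes the difference between WT iPSC and WT ESC was not the same in the AC and JI libraries, by limma's interaction test. The log2 difference in AC minus that in JI was 0.98 for Snai1 (SE 0.27, adjusted p = 0.0257), 0.84 for Twist1 (SE 0.24, adjusted p = 0.0329) and 0.78 for Twist2 (SE 0.18, adjusted p = 0.0119). It was 1.56 for Zeb1 (SE 0.35, adjusted p = 0.00954) and 1.62 for Cdh2 (SE 0.16, adjusted p = 4.93e-05). Over all genes tested 17.9% were called by this test. The AC side rests on 1 iPSC library, WT iPSC 1, at passage 6, while the JI iPSC were at passage 10 to 15. Passage, strain and library set cannot be told apart here.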

How the results depend on the processing

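Over single-gene results and alternatives, 2606 kept direction and side of the threshold, 73 lost the call, 57 gained it and 7 turned. Those that turned were, without the set term, Twist1 in piPSC minus WT iPSC (-0.45) and in Nanog-null iPSC minus WT iPSC (-0.034), and Vim in the latter (-1.18). Twist2 in WT iPSC minus WT ESC was 0.45 in AC alone. Vim in Nanog-null ESC minus MEF was -1.64 with quantile normalization and -3.63 with only the groups compared, and Zeb1 in Nanog-null iPSC minus WT iPSC ran from -0.35 to 0.83 over left-out samples. The cause was not tested. Counts of called genes moved as follows, with the share of all genes called in either direction in brackets. In piPSC minus WT iPSC a fold of at least 2 left 3 (31.67%). In WT iPSC minus WT ESC edgeR gave 2 with TMM (8.60%) and 2 with RLE (7.95%). In AC alone, where WT iPSC is 1 library, the log2 changes of that comparison were 1.56 for Cdh2, 1.37 for Snai1 and 1.07 for Zeb1. Without the set term Nanog-null ESC minus WT ESC had 4 (31.95%), Nanog-null iPSC minus WT iPSC 3 (47.43%) and Nanog-null iPSC minus piPSC 5 (45.36%). In Nanog-null iPSC minus Nanog-null ESC, AC alone (29.71%) and only the groups compared (34.03%) gave 4. The replicate block (15.3%) gave 1 (Twist2, adjusted p = 0.0421 by limma). In G2 minus G5, RLE gave 1 (6.82%), and AC alone (18.15%) and only the groups compared (14.17%) gave 5. A pseudocount of 0.1 (2.94%), no set term (0.824%) and a fold of at least 2 (1.01%) gave 0. Over left-out samples the counts ran from 0 to 2 in WT iPSC minus WT ESC and in Nanog-null iPSC minus Nanog-null ESC, and from 0 to 4 in G2 minus G5. Replicate numbers did not pair the samples (r from -0.06 to 0.11). The replicate block also lost Twist1 in piPSC minus WT iPSC (adjusted p = 0.0639) and Cdh2 in Nanog-null iPSC minus WT iPSC (adjusted p = 0.0693), and called Snai2 in G2 minus G5 (adjusted p = 0.0452). Depth limits the shut genes, which rest on 0 to 24 fragments a library.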
